A study of Mus musculus with 6 samples.

Results

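The 10 genes described here encode the enzymes, and 1 carrier, that make citrulline and run the urea cycle: Aldh18a1, Oat, Nags, Cps1, Otc, Slc25a15, Ass1, Asl, Arg1 and Arg2. They were taken by symbol from the 33017 genes of the deposited count table. All 10 symbols are in the table, and 9 had enough counts to be tested among 15904 genes. Oat was listed at 0 counts in all 6 libraries. Poly-A selected messenger RNA of mouse small intestine was sequenced in 2 groups, 3 libraries labelled control (control 1 to 3) and 3 labelled model (model 1 to 3). The title of the series names simulated microgravity and radiation, and its design text speaks of the effect of both factors, so the question addressed was which transcripts differ between model and control tissue. The labels give no strain, sex, age, dose, exposure time or intestinal segment, and no label ties a library to an animal of its own. The p-values therefore speak of the scatter among libraries, part or all of which may be technical.

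As background, the urea cycle turns toxic ammonia into urea in the liver, whereas the enterocytes of the small intestine run mainly its first, mitochondrial part. There, glutamine, glutamate and proline are turned into ornithine, ornithine is joined with carbamoyl phosphate to give citrulline, and citrulline leaves the gut. The kidney then makes arginine from it. Blood citrulline is for this reason used as a sign of working enterocyte mass, for example after irradiation.

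Control 3 differed from the other 5 libraries in its markers of intestinal position. The 5 markers of the ileum, the last segment, summed to 2214 CPM (reads of a gene relative to the TMM-scaled total of its library) in control 3 and to 99.7 to 238 CPM elsewhere, and the 5 markers of the proximal segments summed to 236 CPM in control 3 and 2598 to 4210 CPM elsewhere. Of the 236 CPM in control 3, 224 CPM came from Slc40a1, which was at 169 CPM in control 1. The 10 mature enterocyte markers, of which Fabp2 was at 0 counts in all 6 libraries, summed to 23166, 20864 and 14877 CPM in control 1, 2 and 3 and to 35794, 19800 and 26581 CPM in model 1, 2 and 3. Control 3 was the lowest library, and 8570 CPM of its sum came from the aminopeptidase Anpep. Without Anpep, a split made after the values were seen, the list summed to 6308 CPM in control 3 and to 17325 to 33822 CPM elsewhere. The sum of the 5 smooth muscle markers did not overlap between the groups, at 1031 to 1686 CPM in the control and 762 to 976 CPM in the model libraries. Taken singly, Acta2, Tagln, Cnn1 and Des overlapped. Myh11, the most abundant of the 5, did not, as was so for 11.1% of all genes tested. It had a log2 fold change of -0.90 (unadjusted p = 0.0156, adjusted p = 0.851 by edgeR), and the part of muscle in the differences between the groups was not tested. Model 3 held 6815 CPM of 10 pancreatic acinar markers, against at most 29.2 CPM elsewhere. Model 1 was shifted by transcript length: its median deviation from the gene means was 0.35 on the log2 scale for the 5124 tested genes with transcripts of up to 2253 bases and -0.36 for the 5121 genes above 3967 bases, against -0.16 to 0.066 and -0.0040 to 0.23 in the other libraries. The liver, the other organ with these enzymes, could be read by 9 markers: they summed to 4.33 to 16.3 CPM in 5 libraries and to 108 CPM in control 3, where Tat accounted for 87.3 CPM and albumin (Alb) for 0.309 CPM.

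Taken per kilobase of transcript, so that genes can be compared, the mitochondrial members had the higher levels and the cytosolic ones the lower. Arg2, the mitochondrial arginase, had a mean level of 237 ± 142 CPM per kilobase (SD, n = 6 libraries), and Cps1, which makes carbamoyl phosphate from ammonia, had 219 ± 63.1. These neighbours did not differ beyond their spread, with Arg2 above Cps1 in 2 of 6 libraries. Slc25a15, the mitochondrial ornithine and citrulline carrier, followed at 84.3 ± 29.8, then Aldh18a1 at 72.5 ± 30.1 and Otc at 52.9 ± 19.4 CPM per kilobase. Slc25a15 exceeded Aldh18a1 in 4 libraries and Aldh18a1 exceeded Otc in 4, so their order was not firm. Nags, which makes the activator of CPS1, stood at 31.2 ± 11.8 CPM per kilobase, below Otc in all 6 libraries.

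The enzymes that turn citrulline into arginine were far lower. Asl, the argininosuccinate lyase, had 12.0 ± 3.32 CPM per kilobase and Ass1, the argininosuccinate synthase, 5.25 ± 1.31. Arg1, the arginase of the liver cycle, had the lowest level at 1.65 ± 1.77 CPM per kilobase. Nags exceeded Asl and Asl exceeded Ass1 in all 6 libraries, and Ass1 exceeded Arg1 in 5 of 6. Per kilobase of coding sequence in place of the whole transcript the first 3 places changed order, with Slc25a15 at 320, Arg2 at 319 and Cps1 at 271 CPM. Otc, at 149 CPM, then stood above Aldh18a1, at 107 CPM, while Asl, Ass1 and Arg1 stayed at the lower end.

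**Figure D1:**
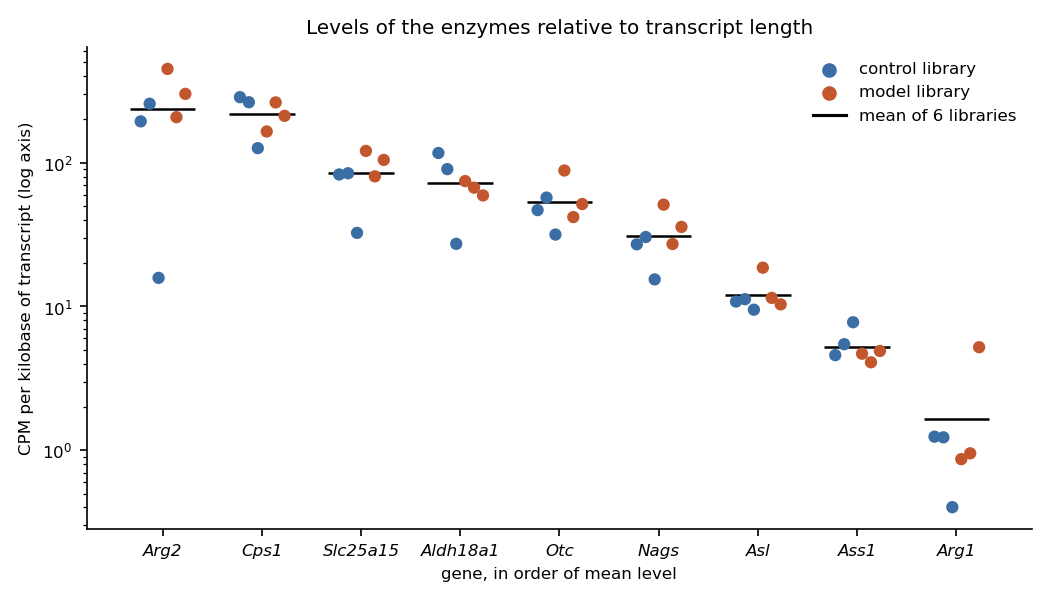
Level of each tested enzyme gene in CPM per kilobase of its longest protein-coding transcript (log axis), with 1 point per library and a line at the mean of 6 libraries. Arg2 and Cps1 have the highest means, at 237 and 219, and Asl, Ass1 and Arg1 the lowest, at 12.0, 5.25 and 1.65.

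No member was called between model and control (edgeR's quasi-likelihood test, Benjamini-Hochberg adjusted over all genes). The number was 0 of 9, beside 0 of all 15904 genes tested (0%), and the smallest adjusted p among the members was 0.851. At an unadjusted p under 0.05 there were also 0 of 9 members, against 4.81% of all genes. DESeq2 called 25 genes (0.157%) and limma-voom called 0, with 0 members in either. Fitted values were above 0 for 6 members and below 0 for 3, with a median log2 fold change of 0.42, while over all genes tested 48.2% were above 0 and the median was -0.018. The groups overlapped for each of the 9 members, where 11.1% of all genes had groups that did not overlap. The tests of the single members are given in the order of the pathway.

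Aldh18a1 encodes the enzyme that opens the route from glutamate to ornithine and proline. It measured 412, 318 and 96.2 CPM in control 1, 2 and 3 and 263, 237 and 209 CPM in model 1, 2 and 3. Control 3 was the lowest library, and the model libraries lay between it and the other controls. Its log2 fold change, model against control, was -0.22 (SE 0.48, edgeR adjusted p = 0.918). Oat, the aminotransferase that yields ornithine, was at 0 counts in every library. So was Aldh4a1 of proline breakdown, and the zeros were not read as absence of the transcripts.

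Nags measured 54.9, 61.7 and 31.3 CPM in the control and 104, 55.1 and 72.6 CPM in the model libraries. Model 1 was highest and control 3 lowest, and model 2 lay among the controls. The log2 fold change was 0.65 (SE 0.33, unadjusted p = 0.0887, adjusted p = 0.851 by edgeR), and its p was the smallest of the 9 members. Without model 1 the log2 fold change was 0.37.

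Cps1 carries out the first and rate-limiting step of the cycle. It measured 1586, 1463 and 702 CPM in the control and 916, 1459 and 1177 CPM in the model libraries, a level exceeded by fewer than 1 in 100 of the tested genes. The lowest libraries were control 3 and model 1, 1 of each group. With means of 1251 ± 479 and 1184 ± 272 CPM (SD, n = 3 per group) the log2 fold change was -0.079 (SE 0.38, edgeR adjusted p = 0.964).

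Otc joins carbamoyl phosphate to ornithine and so forms citrulline. It measured 140, 171 and 94.8 CPM in the control and 265, 126 and 155 CPM in the model libraries. Model 1 stood above the rest, and the other 2 model libraries lay within the range of the controls. The log2 fold change was 0.42 (SE 0.35, edgeR adjusted p = 0.851), and without model 1 it was 0.045. Relative to Cps1 in the same library, Otc was at 0.0885, 0.117 and 0.135 in the controls, and at 0.289, 0.0860 and 0.131 in the models. The ratio spanned 0.0860 to 0.135 in 5 libraries and was larger in model 1.

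Slc25a15 brings ornithine into the mitochondrion and takes citrulline out. It measured 284, 290 and 111 CPM in the control and 414, 276 and 359 CPM in the model libraries, again highest in model 1 and lowest in control 3. The log2 fold change was 0.61 (SE 0.39, edgeR adjusted p = 0.851).

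**Figure D2:**
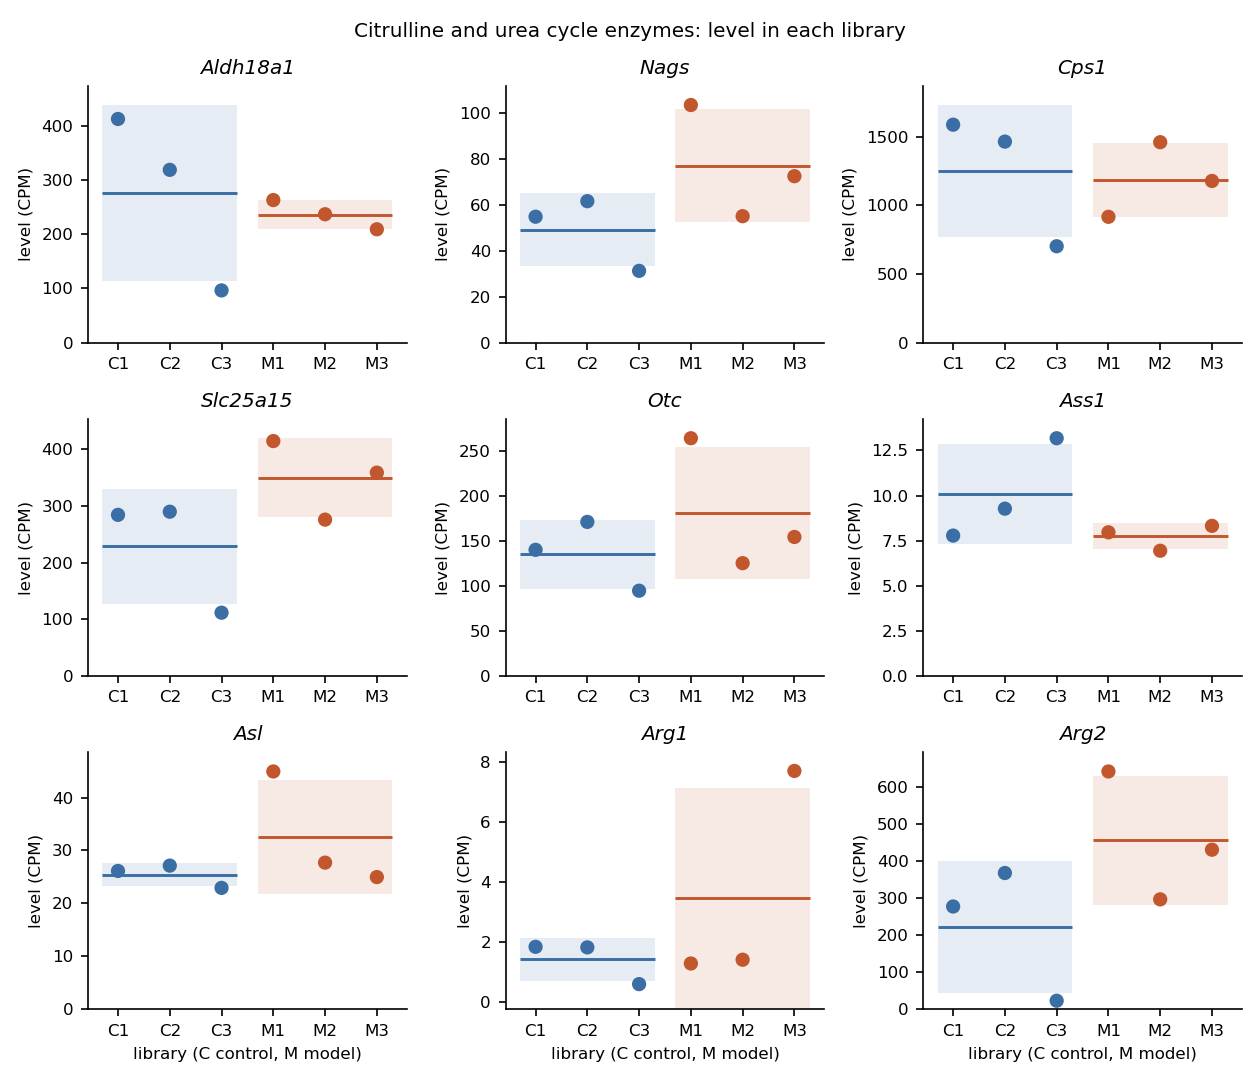
CPM of the 9 tested enzyme genes in control (C1 to C3) and model (M1 to M3) libraries, with a line at the group mean and shading of 1 SD (n = 3); axes differ between panels. Control 3 is the lowest library for 8 of 9 genes and model 1 the highest for 5 of 9.

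The promoters of Otc, Nags and Slc25a15 are shown because these genes, neighbours in the pathway, had the closest patterns over the libraries among the mitochondrial members. The root-mean-square difference of their centred log2 CPM was 0.17 between Otc and Nags and 0.20 between Nags and Slc25a15. It was 0.33 between Otc and Slc25a15, against 0.58 between Otc and Cps1. Asl, which is not among the mitochondrial members, was nearer to Otc than Slc25a15 was, at 0.23. Asl was at 0.33 from Nags and at 0.48 from Slc25a15. The closeness was therefore not particular to the genes shown, and no window was given for Asl. The sequences are from RefSeq's promoter windows of build GRCm38.p6, while the counts were made on GRCm39. They are printed 5′ to 3′ on the strand of the gene and stop before the first annotated start. They are chrX:10252055-10252229 (plus strand) for Otc, chr11:102145263-102145512 (plus strand) for Nags and chr8:22398622-22398871 (minus strand) for Slc25a15. Capitals mark GGGCGG, the GC box that SP1-type factors bind, on either strand.
Otc: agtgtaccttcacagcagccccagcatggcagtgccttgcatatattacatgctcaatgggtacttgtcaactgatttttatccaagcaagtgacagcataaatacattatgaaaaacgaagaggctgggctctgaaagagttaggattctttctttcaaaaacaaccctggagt
Nags: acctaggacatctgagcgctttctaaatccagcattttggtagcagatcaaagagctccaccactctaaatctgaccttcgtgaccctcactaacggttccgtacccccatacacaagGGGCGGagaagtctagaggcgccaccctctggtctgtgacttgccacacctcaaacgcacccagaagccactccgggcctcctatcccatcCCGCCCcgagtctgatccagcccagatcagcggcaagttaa
Slc25a15: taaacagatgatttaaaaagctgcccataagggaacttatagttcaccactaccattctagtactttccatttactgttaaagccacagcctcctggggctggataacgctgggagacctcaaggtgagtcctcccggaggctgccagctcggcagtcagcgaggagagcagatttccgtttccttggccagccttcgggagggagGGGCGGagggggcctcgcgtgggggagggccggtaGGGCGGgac

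Windows of 300 bases (250 before and 50 after a start) were given for 6 members, Otc, Ass1, Nags, Aldh18a1, Oat and Slc25a15, the last with 2 starts. GGGCGG was found on either strand in 6 of these 7 windows and in 35.7% of all 32851 windows. The Otc window was the exception. Its GC content was 44.3%, below the median of 52.7% of all windows, while the other 6 windows had 57.7% to 79.0%. On its plus strand the Otc window held AAAGTNCA, a core of the sites of the nuclear receptor HNF4, 68 bases before the start, and GATAAG, the core of GATA factor sites, 14 bases before it. Both lie beyond the stretch printed, downstream of an earlier annotated start. The former occurs in 4.12% and the latter in 7.44% of all windows on either strand, and in 0 of the other 6. TATAAA was found in 0 of the 7 windows and in 13.6% of all. The motifs were chosen after the sequences had been seen.

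Ass1 makes argininosuccinate from citrulline and aspartate. It measured 7.78, 9.27 and 13.2 CPM in the control and 7.96, 6.94 and 8.32 CPM in the model libraries. It was the only tested member with its highest level in control 3, and the other 5 libraries spanned 6.94 to 9.27 CPM. The log2 fold change was -0.38 (SE 0.27, edgeR adjusted p = 0.851), and without control 3 it was -0.12. Asl, which splits argininosuccinate into arginine and fumarate, measured 26.1, 27.1 and 22.9 CPM in the control and 44.9, 27.7 and 25.0 CPM in the model libraries. Model 1 stood apart, and the other 5 libraries lay within 22.9 to 27.7 CPM. Its log2 fold change was 0.36 (SE 0.26, edgeR adjusted p = 0.851), and without model 1 it was 0.052.

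The 2 arginases, which split arginine into ornithine and urea, had different patterns. Arg2, the mitochondrial form, measured 277, 367 and 22.6 CPM in the control and 641, 296 and 430 CPM in the model libraries. Control 3 was 12.3-fold below the lowest of the other 5 libraries, the widest gap of any member. The log2 fold change was 1.04 (SE 0.83, edgeR adjusted p = 0.851), and without control 3 it was 0.52 (SE 0.37, adjusted p = 1). Arg1, the cytosolic form of liver and of some macrophages and innate lymphocytes, had 88, 68 and 25 counts in the control and 37, 62 and 270 counts in the model libraries. That is 1.84, 1.82 and 0.594 CPM in the control and 1.28, 1.41 and 7.69 CPM in the model libraries, so that model 3 alone was high. Its log2 fold change was 1.29 (SE 0.81, edgeR adjusted p = 0.851), and without model 3 it turned to -0.071.

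Markers of cells that can hold Arg1 were compared in the same libraries. In model 3 the 9 macrophage markers summed to 173 CPM, within the 107 to 239 CPM of the other libraries, and the 6 markers of group 2 innate lymphocytes, of which Il13 was at 0 in all libraries, to 25.4 CPM, within 14.7 to 34.8 CPM. The 5 neutrophil markers summed to at most 0.499 CPM in any library. The liver markers summed to 6.15 CPM in model 3, with Alb at 0.114 CPM. The pancreatic acinar markers were at 6815 CPM there, and the 5 B cell markers at 146 CPM, against 238 CPM in control 3 and 7.65 to 32.0 CPM elsewhere. The part of these cells in the Arg1 value was not tested.

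Across the members, control 3 was also compared with the other 5 libraries, a contrast chosen after the values were seen. Control 3 was the lowest library for 8 of the 9 tested members, as it was for 26.8% of all genes tested. It was below 50% of the mean of the other 5 libraries for 5 members (Arg1, Arg2, Nags, Aldh18a1 and Slc25a15), as for 9.48% of all genes. The mean of the other 5 libraries exceeded control 3 by 17.8-fold for Arg2, 4.73-fold for Arg1, 2.99-fold for Aldh18a1, 2.91-fold for Slc25a15, 2.22-fold for Nags, 1.88-fold for Cps1, 1.81-fold for Otc and 1.32-fold for Asl. Since 1 library has no replicate, these folds have no test. That of Arg1 rests on 25 counts in control 3 and takes in model 3, where Arg1 was high at 7.69 CPM. The lowest of the other 5 libraries exceeded control 3 by 2.16-fold for Arg1, 2.17-fold for Aldh18a1 and 2.47-fold for Slc25a15. Position markers moved with them, though not all. Gata4, a transcription factor of the proximal gut, was at 1.90 CPM in control 3 and at 214 to 255 CPM elsewhere. The ileal bile acid binding protein Fabp6 was at 1166 CPM in control 3 and at 0.0454 to 0.285 CPM elsewhere. Slc40a1 of the proximal list, however, was at 224 CPM in control 3, above the 169 CPM of control 1. Control 3 was also the lowest library for 8 of the 9 tested mature enterocyte markers, of which Lct and Fabp1 are also in the proximal list. The gap was wide for the alkaline phosphatase Alpi, at 276 against 2981 to 7417 CPM elsewhere, for the lactase Lct, at 0.997 against 610 to 2255 CPM, and for the apolipoprotein Apoa4, at 12.6 against 945 to 2511 CPM. It was narrow for the villin Vil1, at 1810 against 1991 to 2389 CPM, and Anpep was higher there, at 8570 against 1973 to 3461 CPM. In bulk tissue, fewer cells of a type and less RNA per cell cannot be told apart, and the part of intestinal position or of enterocyte content in these folds was not tested.

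**Figure D3:**
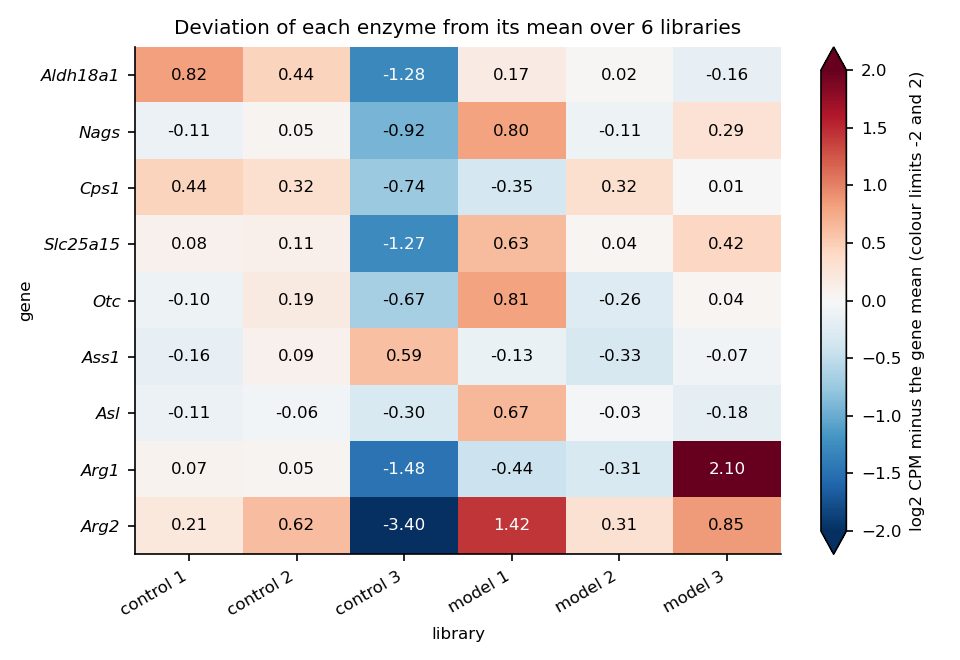
Log2 CPM of each enzyme gene minus its mean over the 6 libraries, in the order of the pathway, with the values printed and the colour scale cut off at both ends. Control 3 is below the mean for 8 genes, down to -3.40 for Arg2, and above it for Ass1 at 0.59.

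**Figure D4:**
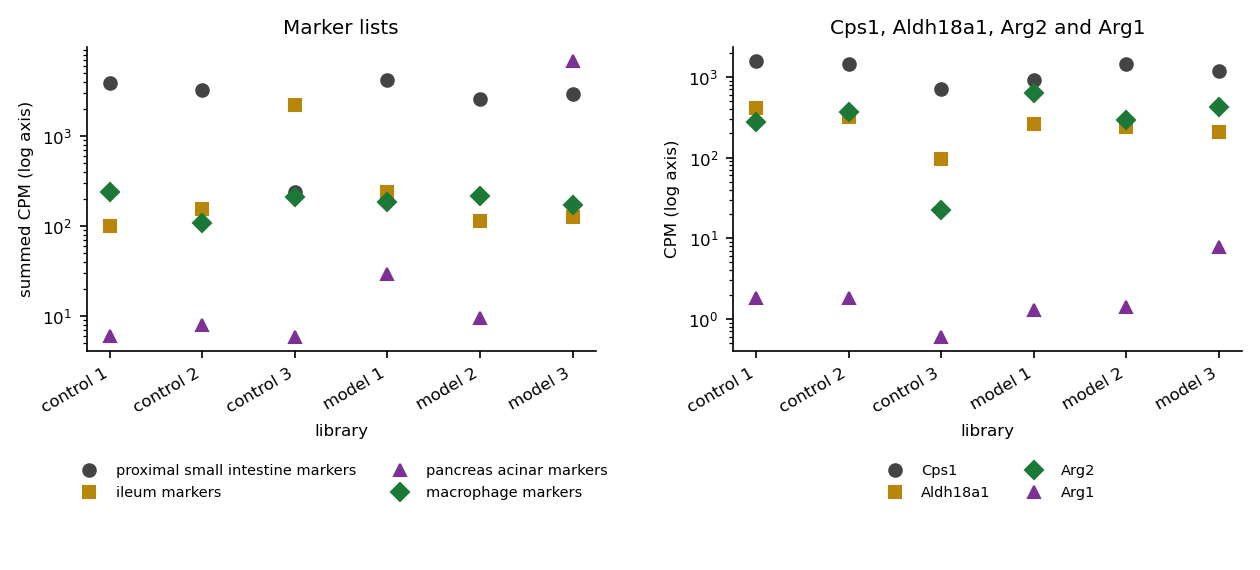
Left, summed CPM of 4 marker lists by library; right, CPM of Cps1, Aldh18a1, Arg2 and Arg1 by library (both log axes, 1 point per library). The ileum list is high (2214 CPM) and the proximal list low (236 CPM) in control 3, where Arg2 is at 22.6 CPM, and the acinar list is high in model 3 (6815 CPM), where Arg1 is at 7.69 CPM.

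Without control 3, which left 2 control libraries, the libraries were scaled and fitted again. The members called were 0 of 9, against 0% of 16145 genes tested. Aldh18a1 then measured 351 ± 63.3 CPM in the control group (SD, n = 2) and 230 ± 28.0 CPM in the model group (SD, n = 3). Its log2 fold change was -0.61 (SE 0.24), in place of -0.22, with edgeR's unadjusted p = 0.0373 and adjusted p = 1. It was the 1 member of 9 at an unadjusted p under 0.05, where 2.34% of all genes were. The 3 model libraries of Aldh18a1, at 257, 231 and 201 CPM, lay below both remaining controls, at 396 and 307 CPM. Aldh18a1 was the 1 member whose groups did not overlap in this scaling, where 16.4% of all genes had such groups. Cps1 had a log2 fold change of -0.35 (SE 0.29), with model libraries at 897, 1424 and 1134 CPM that overlapped controls at 1525 and 1409 CPM. The values of Nags, Slc25a15 and Otc came to 0.42 (SE 0.30), 0.30 (SE 0.26) and 0.24 (SE 0.35). The median over the members was 0.30 without control 3 and -0.019 without control 3 and model 1. The latter fit, added after seeing the data, left 2 libraries in each group. Aldh18a1 was at -0.72 in it (unadjusted p = 0.00691, adjusted p = 0.977 by edgeR). Of all 16010 genes tested in that fit, 702 had an unadjusted p under 0.05. The value of Aldh18a1 depended on the libraries and the method, at 0.19 without control 1 and 0.018 by limma-voom on all 6 libraries.

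Model 1 was the highest library for 5 of 9 members (Otc, Asl, Arg2, Nags and Slc25a15), as it was for 28.5% of all genes. It was the second lowest for Cps1. Cps1 has the longest transcript of the members at 5555 bases, followed by Aldh18a1 at 3527, while Arg2 has the shortest at 1428. With each library's trend with transcript length removed, the deviation of Cps1 in model 1 was -0.012 in place of -0.35, that of Otc stayed at 0.81 and that of Arg2 was 1.07 in place of 1.42. That fit was made by limma in place of edgeR, and 0 members were called. Its log2 fold changes were 0.15 (SE 0.39) for Cps1, 0.070 (SE 0.58) for Aldh18a1 and 0.77 (SE 0.45) for Slc25a15. Those of Cps1 and Aldh18a1 were of opposite sign to the edgeR values above. Without the removal, limma-voom gave -0.025 (SE 0.37), 0.018 (SE 0.51) and 0.73 (SE 0.40) in the same order. Aldh18a1 thus turned there as well, and the part of the length trend in its turn was not tested.

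**Figure D5:**
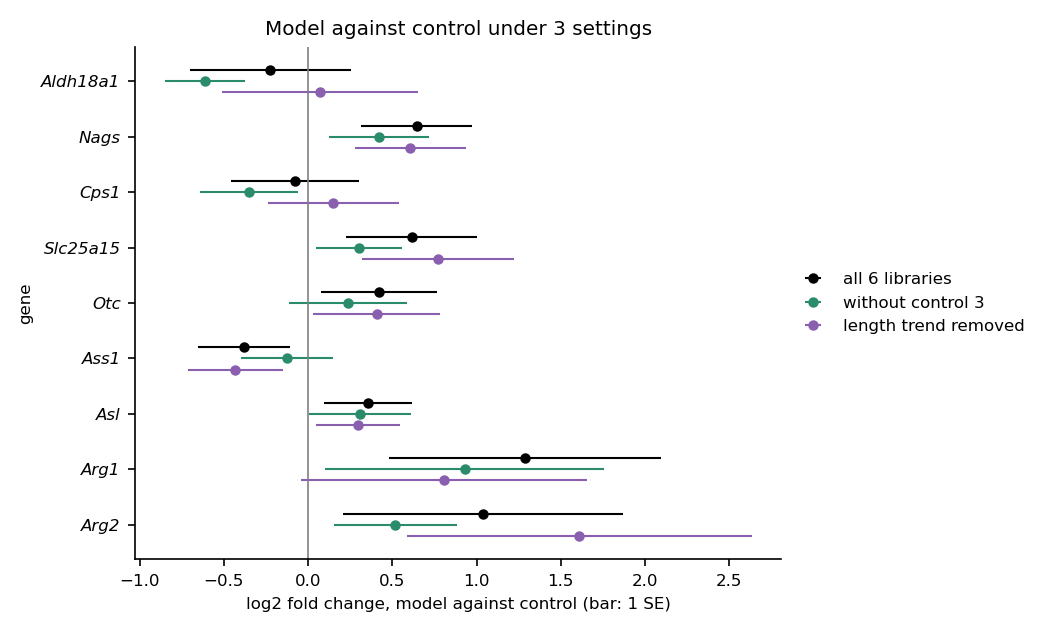
Log2 fold change, model against control, of the 9 tested enzyme genes with bars of 1 SE, for all 6 libraries (edgeR), without control 3 (edgeR) and with the transcript length trend removed (limma). Nags, Slc25a15, Otc, Asl, Arg1 and Arg2 lie above 0 and Ass1 below 0 in each of the 3, whereas Cps1 and Aldh18a1 lie on either side; no value passed the adjusted threshold.

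The surrounding pathway was read from 4 lists. Of 13 tested genes that supply the precursors glutamine, glutamate and proline, 0 were called, 11 had values above 0 and the median was 0.14. Among its abundant genes was Gpt, the alanine aminotransferase, with 194 ± 83.8 CPM in the control and 309 ± 99.8 CPM in the model group (SD, n = 3 each). Control 3 was the lowest library for Gpt, at 97.0 CPM, and model 1 the highest, at 420 CPM. The log2 fold change of Gpt was 0.68 (SE 0.41, edgeR adjusted p = 0.851). It was 0.37 without control 3 and 0.065 without control 3 and model 1. Of 21 genes of arginine use (nitric oxide, polyamines and creatine), 0 were called and 14 were above 0, with a median of 0.13. Ckmt1 and Ckb, the mitochondrial and cytosolic creatine kinases, were its most abundant genes, and both were lowest in control 3, Ckmt1 at 413 against 1440 to 2449 CPM elsewhere and Ckb at 81.6 against 446 to 851 CPM.

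Of 19 amino acid, urea and glycerol carriers and channels, 0 were called and 9 were above 0 (median -0.0054). The neutral amino acid transporter Slc6a19 measured 323, 346 and 344 CPM in the control and 744, 436 and 711 CPM in the model libraries. Its groups did not overlap, and control 3 lay with the other controls. The log2 fold change was 0.90 (SE 0.27) with an unadjusted p = 0.0120 and an adjusted p = 0.851 by edgeR. Slc7a9, which takes up cystine and basic amino acids such as arginine, had a log2 fold change of -0.13 (SE 0.28). Of 17 regulators 0 were called and 12 were above 0 (median 0.050), with the nuclear receptors Hnf4a at -0.15 (SE 0.27) and Hnf4g at 0.58 (SE 0.35). In the 4 lists control 3 was the lowest library for 26.3% to 33.3% of the genes, near the 26.8% of all genes.

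The genes with patterns nearest to those of Cps1 and Otc were sought among 15895 other tested genes, by the root-mean-square difference of centred log2 CPM over the 6 libraries. Nearest to Cps1 were Ccdc88c (0.074), Scly (0.089), Thra (0.10), Slc12a7 (0.11) and Chdh (0.11), where the pattern of Cps1 itself had a size of 0.42. Nearest to Otc were Thap11 (0.043), Tbca (0.060), Ccl25 (0.065), Krt23 (0.068) and Pon2 (0.072), where that of Otc had a size of 0.45. The nearest member to Cps1 was Aldh18a1, at 0.38, and the nearest to Otc was Nags, at 0.17.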

How the data were processed

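The deposited file is a single matrix of raw counts, whole numbers per gene symbol for 33017 genes and 6 libraries. Per the submitters' processing notes, FastQC, Trimmomatic, STAR and featureCounts were used on build GRCm39. Their versions, the annotation and the settings for strand and multi-mapping are not stated there, so genes that overlap or lie antisense to each other may share reads. Columns were matched to samples by the library names in the labels (0 unmatched). Library totals were 35007515 to 45285564 counts, and no 2 libraries of a group agreed within sampling noise (chi-square of at least 115 per degree of freedom). Genes were kept by filterByExpr and scaled by TMM, and the group was tested by the quasi-likelihood F test of edgeR, with robust dispersions (R 4.3.3, edgeR 4.0.16). Adjusted p-values are over all genes tested and calls are at 0.05. The SE of a log2 fold change is its size over the root of its F value. Deviations are of log2 CPM with a prior count of 2. Lengths are of the longest protein-coding transcript in GENCODE M21 (GRCm38), matched by symbol for 96.6% of tested genes. Folds of 1 library are ratios of CPM. The fits were also run on simulated data. Recovery of changed genes was required there only at a biological coefficient of variation below the 40.7% of these data. That run therefore does not show the power to call a member here.

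Alternatives were DESeq2 1.42.0, limma-voom (limma 3.58.1), 3 other scalings, 2 other filters, non-robust dispersion, a replicate block, and the omission of 1 library at a time. Removal of a lowess trend with transcript length (then limma) and fits without control 3 and model 1 or model 3 were added after seeing the data. Members and lists were chosen with earlier results of these data known. Named are the 10 members, the 2 most abundant tested genes of each of the 4 pathway lists (1 of which is not reported here), and the 5 genes nearest in pattern to Cps1 and to Otc; other genes are named as markers or after their values were seen. The crypt (947 to 1306 CPM) and red blood cell (7.47 to 19.6 CPM) lists were also summed.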

Additional observations from a re-analysis of the deposited data

How the results depend on the processing

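Of 287 recomputed fold changes of the 9 members and 7 pathway genes, 269 kept their direction and side of the threshold, 18 turned direction and 0 became called. The number of members called was 0 under every alternative run. Genes called over the whole table were 25 with DESeq2 and 0 in every other fit. Genes at an unadjusted p under 0.05 were 765, but 428 with at least 5 CPM in 3 libraries, 297 without control 3 and model 3, and 377 to 991 with 1 library left out, lowest without control 3. Members at that p were 0 to 1 with 1 library left out (Aldh18a1 without control 3, Nags without model 2) and 1 without control 3 and model 1. In the last of these fits 702 of all 16010 genes tested were at that p. The members' median was 0.076 to 0.65 with 1 library left out (lowest without model 1) and 0.21 with library size alone, which moved the median of all genes by -0.19. The labels tie replicate numbers to no animal or batch. Deviations of same-numbered libraries correlated at -0.15, -0.27 and 0.31 for replicates 1, 2 and 3. Those of differently numbered libraries of the groups correlated at -0.35 to 0.48. With the replicate block 0 genes were called, 537 had an unadjusted p under 0.05 and the members' median was 0.40, with Aldh18a1 at 1.0e-05. 

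With 1 library left out, Cps1 ranged from -0.35 (control 3) to 0.14 (control 1), and it also turned without control 2 (0.066) or model 1 (0.076) and with the length trend removed (0.15). Aldh18a1 ranged from -0.61 (without control 3) to 0.19 (without control 1), and turned with limma-voom (0.018) and with the length trend removed (0.070). Arg1 ranged from -0.071 (without model 3) to 1.67 (without model 1), and turned without control 3 and model 3 (-0.44). With 1 library left out, Otc ranged from 0.045 (model 1) to 0.65 (control 2), Asl from 0.052 (model 1) to 0.52 (model 3), Arg2 from 0.52 (control 3) to 1.62 (control 2), Slc25a15 from 0.30 (control 3) to 0.84 (control 2), Nags from 0.37 (model 1) to 0.86 (control 2) and Ass1 from -0.53 (control 1) to -0.12 (control 3). Without control 3 and model 1, Otc was at -0.16, Asl -0.019, Ckmt1 -0.14, Ckb -0.42 and Slc7a9 0.081. Slc7a9 was at 0.27 without control 3 and model 3. With 1 library left out, Ckb ranged from -0.19 (control 3) to 0.82 (control 2) and Slc7a9 from -0.30 (control 1) to 0.19 (control 3). The cause of these turns was not tested. Per kilobase of coding length the levels of Slc25a15, Aldh18a1, Otc, Asl and Ass1 were 320, 107, 149, 20.8 and 7.21 CPM. With 25 to 270 counts per library, Arg1 had the least depth of the tested members.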

Other observations

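Some genes of arginine use, picked with their values in view, stood far apart in control 3. Nos2, the inducible nitric oxide synthase, which competes for arginine, was at 445 CPM in control 3, at 8.99 and 9.27 CPM in control 1 and 2 and at 1.45, 17.1 and 1.62 CPM in model 1, 2 and 3. Ddah1, which breaks down the methylarginines that inhibit nitric oxide synthases, was at 80.6 CPM in control 3 and 1.12 to 3.65 CPM elsewhere. Agmat, annotated as an agmatinase, was at 4.16 CPM in control 3 and 25.8 to 42.4 CPM elsewhere. In that library Arg2 was thus low where Nos2 was high.

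The groups did not overlap for Got1 among 13 tested genes of precursor supply and for Azin1 and Nos1 among 21 of arginine use. The same held for Slc6a19, Slc3a2 and Aqp3 among 19 carriers and for Nr3c1 among 17 regulators. None of them was called. Over all genes 11.1% had such groups, and no excess over that share was read from the lists. Got1, the cytosolic aspartate aminotransferase, measured 104 ± 41.2 CPM in the control and 211 ± 49.8 CPM in the model group (SD, n = 3 each; unadjusted p = 0.0200, adjusted p = 0.851 by edgeR). Slc3a2, the heavy chain of several amino acid exchangers, measured 167 ± 45.4 and 291 ± 88.1 CPM, and the aquaglyceroporin Aqp3 6.05 ± 4.25 and 19.6 ± 3.84 CPM. Control 3 was the lowest library and model 1 the highest for Got1, Slc3a2 and Aqp3. In control 1, 2 and 3 Got1 was at 110, 141 and 59.6 CPM, Slc3a2 at 200, 186 and 115 CPM and Aqp3 at 7.53, 9.35 and 1.26 CPM. Nos1, the neuronal nitric oxide synthase, measured 6.49 ± 2.85 and 2.99 ± 0.168 CPM.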
